A study of Mus musculus with 6 samples.

Results

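The genes described here are 10 genes that mark the GABAergic interneurons of the striatum, a nucleus of the basal ganglia that receives cortical input. They are Pvalb and Pthlh of the parvalbumin class, Sst, Npy, Chodl and Npy2r of the somatostatin and neuropeptide Y class, Calb2 of the calretinin class, Th of the tyrosine hydroxylase class, and Kit and Lhx6. They were chosen by name, with earlier results of these data known. Matching by gene symbol found 10 of 10 among the 55335 gene identifiers of the count files. The filter on low counts was passed by 10 of 10. RNA-seq had been run on striatum from C57 mice in 2 groups. The OE group was 3 samples with the genotype label PDE5A Overexpressing, and the NC group was 3 samples with the genotype label WT. PDE5A is a phosphodiesterase that hydrolyses cyclic GMP. How overexpression was brought about, what the NC animals received, and how old the animals were, is not stated in the sources used here.

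Most neurons of the striatum are GABAergic medium spiny projection neurons, and local interneurons are a small minority of its cells. Fast-spiking parvalbumin interneurons inhibit the cell bodies of medium spiny neurons, while interneurons that make somatostatin, neuropeptide Y and nitric oxide synthase contact their dendrites. Smaller classes express calretinin or tyrosine hydroxylase, and most of the parvalbumin and somatostatin cells arise in the medial ganglionic eminence, where Lhx6 is required for their fate. In homogenised tissue a lower level of such a gene can come from fewer cells or from less RNA per cell, and these cannot be told apart.

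The OE libraries held between 33013698 and 39271447 counts and the NC libraries between 40653784 and 42288789, so each OE library was shallower than each NC library. The targeted gene Pde5a stood at 592 to 760 counts per 1000000 counts (CPM) in the OE libraries and at 3.72 to 6.09 CPM in the NC libraries, as labelled. Markers of medium spiny neurons, 12 of 12 detected, summed to 4195 to 8529 CPM in OE and 4907 to 8663 CPM in NC. Some libraries stood apart in markers of neighbouring tissue. The 10 choroid plexus markers summed to 534, 2450 and 33.3 CPM in OE replicates 1 to 3, against 52.2 to 72.0 CPM in NC. The 11 markers of glutamatergic cortical neurons summed to 408, 733 and 1466 CPM in OE replicates 1 to 3, and to 669.5, 176 and 1134 CPM in NC replicates 1 to 3. The 7 thalamic markers summed to 58.0 to 65.2 CPM in OE and 76.5 to 99.3 CPM in NC, and none of these 3 lists had a gene at 0 throughout.

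Of the 10 interneuron genes, 0 passed an adjusted p of 0.05 in edgeR's quasi-likelihood test, in which 1 of 19809 genes (0.00505%), Pde5a, passed. Counts of 0 of 10 were also given by the DESeq2 Wald test, in which 83 of all genes passed (76 higher, 7 lower), and by limma-voom, in which 6 passed. The fold changes pointed both ways, with 4 of 10 negative and 6 of 10 positive, and their median was 0.07 on the log2 scale (OE over NC) beside a median of 0.00 over all genes tested. An unadjusted p under 0.05 was found for 4 of 10, namely Npy2r, Chodl, Pthlh and Lhx6, against 3.89% of all genes tested. For the same 4 the groups did not overlap. Chodl, Npy2r and Lhx6 lay lower in OE (3 of 10, against 4.11% of all genes) and Pthlh lay higher (1 of 10, against 4.81%). As the 10 genes were chosen with earlier results of these data known, the shares given here are no test of an excess. Adjusted over all genes in edgeR's quasi-likelihood test, each of the 10 had a p of 1. The number with an unadjusted p under 0.05 depended on single libraries. It was 2 without OE replicate 1 (5.09% of all genes), 2 without OE replicate 2 (3.1%) and 3 without OE replicate 3 (4.28%). It was 3 without NC replicate 1 (2.74% of all genes), 0 without NC replicate 2 (2.85%) and 2 without NC replicate 3 (4.57%), and the genes were not always the same.

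**Figure D1:**
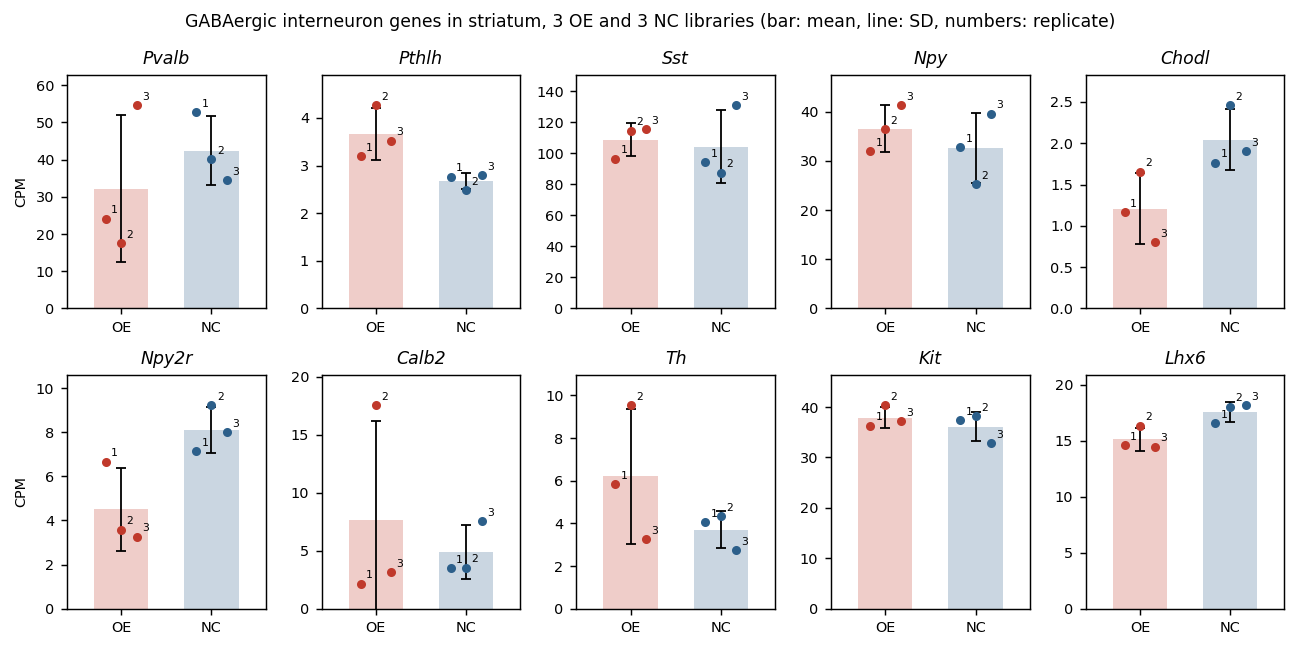
CPM of each interneuron gene in the 3 OE and 3 NC libraries, with replicate numbers beside the points, bars at the group mean and lines for the SD. The groups separate for Pthlh, Chodl, Npy2r and Lhx6, while Calb2 has 1 high library, OE replicate 2, and Th has OE replicates 1 and 2 above the NC range. The SD of Calb2 in OE exceeds its mean, and the line is drawn down to 0.

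The levels spanned a wide range among the classes. Per kilobase of exon, averaged over the 6 libraries, Sst stood highest at 148 CPM per kb, followed by Npy at 61.0 and Pvalb at 35.8 CPM per kb. The lowest Sst library, at 121 CPM per kb, was above the highest Npy library, at 73.0. Npy and Pvalb overlapped, since the lowest Npy library had 44.6 CPM per kb and the highest Pvalb library had 52.5. A middle tier held Kit at 4.16, Calb2 at 3.58, Lhx6 at 3.40, Th at 2.10, Pthlh at 1.96 and Npy2r at 1.86 CPM per kb, and neighbours in this order overlapped between libraries. Chodl was lowest at 0.296 CPM per kb, and its highest library, at 0.448, was below the lowest Npy2r library, at 0.963.

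Sst encodes somatostatin, an inhibitory peptide released by the dendrite-targeting interneurons. Its mm10 position is chromosome 16, minus strand, 23889573 to 23890958. Sst had 96.3, 114.5 and 115 CPM in OE replicates 1 to 3, against 94.3, 87.5 and 131 CPM in NC replicates 1 to 3. The groups overlapped, and NC held both the lowest and the highest library. Its log2 fold change of 0.06 had a standard error of 0.16, and the 95% interval of the fold ran from 0.804 to 1.35, short of 2-fold in either direction.

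Npy encodes neuropeptide Y, which many somatostatin interneurons and the neurogliaform interneurons make. Its mm10 position is chromosome 6, plus strand, 49822710 to 49829507. Npy had 32.0, 36.4 and 41.3 CPM in OE, against 32.8, 25.3 and 39.5 CPM in NC. The groups overlapped here too, with a log2 fold change of 0.17 (standard error 0.17) and a 95% interval of the fold from 0.850 to 1.49. Of the 45 pairs among the 10 genes, Sst and Npy lay closest over the 6 libraries. The root-mean-square distance between their mean-centred log2 CPM values was 0.11, against 0.17 for the next pair, Kit and Lhx6. Such a distance is also small for genes that vary little, whatever their pattern. In NC replicate 3, Kit was at its lowest, at −0.17 from its mean, and Lhx6 at its highest, at 0.16. The ratio of Npy to Sst was 0.332, 0.318 and 0.358 in OE and 0.348, 0.289 and 0.302 in NC, so it stayed within a narrow band in both groups.

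Because Sst and Npy lay closest by root-mean-square distance, the 250 bases before their RefSeq starts are shown (GRCm38.p6). The window of Th, which like that of Sst holds the sequence marked below, is shown beside them. The capitals mark TGACGTCA, the cyclic AMP response element sequence known from the somatostatin gene. The Sst window is chr16:23890845-23891094 (minus strand), the Npy window chr6:49822460-49822709 (plus strand) and the Th window chr7:142899996-142900245 (minus strand).
Sst: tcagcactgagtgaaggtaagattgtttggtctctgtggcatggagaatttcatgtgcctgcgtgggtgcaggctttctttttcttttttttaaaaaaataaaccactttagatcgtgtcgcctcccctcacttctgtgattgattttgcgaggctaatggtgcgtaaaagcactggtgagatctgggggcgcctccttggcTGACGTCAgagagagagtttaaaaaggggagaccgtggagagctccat
Npy: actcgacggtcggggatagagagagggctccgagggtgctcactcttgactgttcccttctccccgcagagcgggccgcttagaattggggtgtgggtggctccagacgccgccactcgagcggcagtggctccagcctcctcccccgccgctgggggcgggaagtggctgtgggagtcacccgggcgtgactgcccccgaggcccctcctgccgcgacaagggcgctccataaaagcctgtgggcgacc
Th: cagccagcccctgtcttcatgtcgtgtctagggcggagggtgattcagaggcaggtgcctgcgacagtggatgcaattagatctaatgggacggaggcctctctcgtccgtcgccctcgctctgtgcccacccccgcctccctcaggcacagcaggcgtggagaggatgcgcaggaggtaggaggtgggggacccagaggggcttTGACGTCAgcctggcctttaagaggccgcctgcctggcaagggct
The motif starts 48 bases before the RefSeq start of Sst and 45 bases before that of Th, and the Npy window does not hold these letters on either strand. The GENCODE gene model of Sst begins at 23890958 on the minus strand, inside the Sst window, so the motif lies within that model. Because the motif is its own reverse complement, a match counts for both strands. Promoter entries were found for 9 of the 10 genes, with 13 windows between them, and these 2 were the windows with the motif. Among all 32851 promoter windows, 508 held it (1.55%). Since the motif was taken from what is known of Sst, this share is no test of an excess among the 10 genes.

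Chodl encodes chondrolectin, a membrane lectin that marks long-range somatostatin and nitric oxide synthase cells in mouse cortex. Chodl (chromosome 16, plus strand, 78930948 to 78951733 in mm10) had 1.17, 1.65 and 0.801 CPM in OE replicates 1 to 3, against 1.77, 2.46 and 1.91 CPM in NC replicates 1 to 3. Each OE library was below each NC library, with OE replicate 2 and NC replicate 1 close together. These values rest on few reads. OE replicate 3 held 30 counts, with a 95% exact Poisson interval of 20.2 to 42.8 that covers counting error only, and NC replicate 2 held 101, with an interval of 82.3 to 123. On the log2 scale Chodl differed by −0.74 (standard error 0.29), a fold of 0.599 with a 95% interval from 0.374 to 0.958. It kept a negative sign in 17 of 17 other settings, between −1.30 and −0.53. Because the groups did not overlap, the settings that leave libraries out could hardly turn this sign. Relative to Sst in the same library, Chodl stood at 0.0121, 0.0144 and 0.00694 in OE and at 0.0187, 0.0282 and 0.0146 in NC, where the groups were barely apart.

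Npy2r encodes the Y2 receptor, through which neuropeptide Y inhibits transmitter release. Its mm10 position is chromosome 3, minus strand, 82538383 to 82548084. Npy2r had 6.66, 3.58 and 3.26 CPM in OE, against 7.13, 9.22 and 7.99 CPM in NC. OE replicates 2 and 3 were far below the NC libraries, and OE replicate 1 was just below the lowest of them. At a log2 fold change of −0.84 (standard error 0.28), Npy2r had the lowest unadjusted p of the 10, 0.0173, which was number 309 among all genes tested. The fold was 0.558 with a 95% interval from 0.357 to 0.873. Its sign was negative in 18 of 18 other settings, from −1.31 without OE replicates 1 and 2 to −0.66 without OE replicate 3. Npy2r could hardly change sign when libraries were left out, since each OE library was below each NC library. Its smallest adjusted p in any setting was 0.274, in edgeR's quasi-likelihood test without OE replicate 1, within a range of 0.274 to 1.

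The thalamic markers named above had negative log2 fold changes in 7 of 7 cases, as did Npy2r, Chodl and Lhx6, with a median of −0.49, and 0 of 7 passed the adjusted p. For 4 of 7, Tcf7l2, Prkcd, Gbx2 and Ntng1, the OE libraries lay below the NC libraries without overlap, against 4.11% of all genes tested. This list too was chosen with earlier results known, so the share is no test of an excess. Prkcd, a protein kinase C of thalamic relay neurons, had 13.9, 12.6 and 17.3 CPM in OE and 31.1, 23.0 and 21.8 CPM in NC. Gbx2, a thalamic transcription factor, had at most 0.241 CPM in OE and at least 0.549 CPM in NC, and Ntng1, an axon guidance protein, had 10.6 to 13.5 CPM in OE and 14.8 to 17.4 CPM in NC. By library, the thalamic sum was 58.0, 62.3 and 65.2 CPM in OE replicates 1 to 3 and 99.3, 79.5 and 76.5 CPM in NC replicates 1 to 3. Npy2r instead fell from OE replicate 1 to 3, and Chodl and Lhx6 were highest of OE in replicate 2. Within NC, Npy2r, Chodl and Lhx6 were each lowest in replicate 1, where the thalamic sum and Pvalb were highest. The part of thalamic tissue in the lower values of Npy2r, Chodl and Lhx6 was not tested.

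Pvalb encodes parvalbumin, a calcium-binding protein that defines the fast-spiking class. Its mm10 position is chromosome 15, minus strand, 78191114 to 78206400. Pvalb had 24.1, 17.6 and 54.6 CPM in OE replicates 1 to 3, against 52.7, 40.0 and 34.5 CPM in NC replicates 1 to 3. OE replicates 1 and 2 lay below the NC range and OE replicate 3 lay above it. The coefficient of variation was 61.5% in OE and 22.0% in NC. Pvalb thus had a log2 fold change of −0.40 (standard error 0.46), and the 95% interval of the fold, 0.342 to 1.68, spans both directions. OE replicates 1 and 2 are also the 2 libraries high in choroid plexus markers. Without them the log2 fold change of Pvalb was 0.36, and without OE replicate 3 it was −1.02, so the direction rests on which OE libraries are used. The part of tissue makeup in this split was not tested.

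Pthlh encodes a parathyroid hormone-like peptide, and in mouse striatum its expression covers the parvalbumin cells and related cells with little parvalbumin. Pthlh (chromosome 6, minus strand, 147252101 to 147264183 in mm10) had 3.19, 4.27 and 3.52 CPM in OE, against 2.77, 2.49 and 2.80 CPM in NC. Each OE library was above each NC library. These levels correspond to 126 to 142 counts in OE and 102 to 116 counts in NC. This gave a log2 fold change of 0.44 (standard error 0.18), and the 95% interval of the fold ran from 1.02 to 1.80. OE replicates 1 and 2, low in Pvalb, and OE replicate 3, high in Pvalb, were all above the NC range for Pthlh. The ratio of Pvalb to Pthlh was 7.56, 4.12 and 15.5 in OE and 19.0, 16.1 and 12.3 in NC, with overlapping groups. With the choroid plexus list as a covariate, the log2 fold change of Pthlh was 0.33.

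Calb2 encodes calretinin, a calcium-binding protein of a separate interneuron class and of many cells outside the striatum. Calb2 (chromosome 8, minus strand, 110137502 to 110168210 in mm10) had 2.15, 17.5 and 3.15 CPM in OE, against 3.48, 3.54 and 7.55 CPM in NC. OE replicate 2 stood above each other library, and OE replicates 1 and 3 stood below each NC library. The highest library was 8.14 times the lowest, the widest span of the 10 genes. The log2 fold change of 0.64 (standard error 0.88) turned to −0.86 without OE replicate 2.

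Th encodes tyrosine hydroxylase, the first enzyme of dopamine synthesis, which a class of striatal GABAergic interneurons also makes. Th (chromosome 7, minus strand, 142892752 to 142931128 in mm10) had 5.83, 9.54 and 3.26 CPM in OE, against 4.06, 4.34 and 2.75 CPM in NC. This GENCODE gene model begins upstream of the Th window shown above, which was placed by a RefSeq start. OE replicates 1 and 2 were above the NC range and OE replicate 3 was within it. The log2 fold change of 0.73 (standard error 0.38) became −0.19 without OE replicates 1 and 2 and −0.03 with the choroid plexus list as a covariate. The 8 listed genes of dopamine synthesis and transport summed to 105.8 to 138 CPM in OE and 80.5 to 142 CPM in NC, with widely different levels. Nr4a2, a transcription factor that cortical neurons also express, had 27.6, 46.4 and 69.7 CPM in OE and 54.9, 4.32 and 66.0 CPM in NC, and Aldh1a1, an aldehyde dehydrogenase, had 54.0 to 65.3 CPM in OE and 57.1 to 70.9 CPM in NC. A further 3, picked after their values were seen, were near 0. The dopamine transporter Slc6a3 had at most 0.228 CPM in any library, and Pitx3 and En1, transcription factors of midbrain dopamine neurons, had at most 0.0954 and 0.107 CPM. Ddc, which completes dopamine synthesis, had 8.16, 8.66 and 8.92 CPM in OE and 9.35, 10.5 and 9.23 CPM in NC, so its OE libraries lay below its NC libraries.

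**Figure D2:**
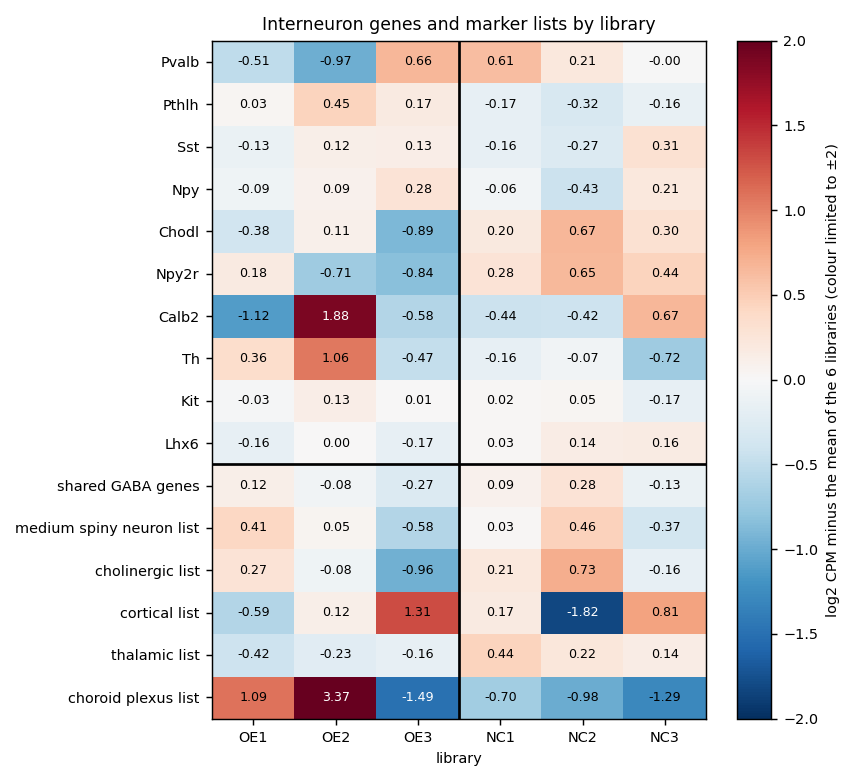
Log2 CPM minus its mean over the 6 libraries for the 10 interneuron genes (upper rows) and for the mean level of 6 marker lists (lower rows), with OE libraries on the left and NC libraries on the right. Calb2 and Th are highest in OE replicate 2, where the choroid plexus list is also highest, and Pvalb is lowest there.

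Lhx6 encodes the LIM homeobox transcription factor of cells from the medial ganglionic eminence. Lhx6 (chromosome 2, minus strand, 36081953 to 36105408 in mm10) had 14.6, 16.3 and 14.5 CPM in OE, against 16.6, 18.0 and 18.2 CPM in NC. The groups did not overlap, with 16.3 CPM as the highest OE value and 16.6 CPM as the lowest NC value. Lhx6 differed by −0.22 on the log2 scale (standard error 0.09), a fold of 0.861 with a 95% interval from 0.742 to 0.999. Its sign held in 18 of 18 other settings, though leaving libraries out could hardly turn it when the groups do not overlap. The small gene model Gm27953 overlaps an exon of Lhx6 on the same strand, which makes its count slightly uncertain.

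Kit encodes a receptor tyrosine kinase for stem cell factor, found in some interneurons and in mast cells. Kit (chromosome 5, plus strand, 75574916 to 75656722 in mm10) had 36.3, 40.3 and 37.2 CPM in OE, against 37.4, 38.2 and 32.8 CPM in NC. It was the least variable of the 10 genes, with a highest library 1.23 times the lowest, and the 95% interval of its fold ran from 0.916 to 1.20. Mast cell markers were nearly absent. Of the 6 listed, Mcpt4, Tpsb2, Cma1 and Fcer1a had no count in any library, and the list summed to at most 3 counts in a library.

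**Figure D3:**
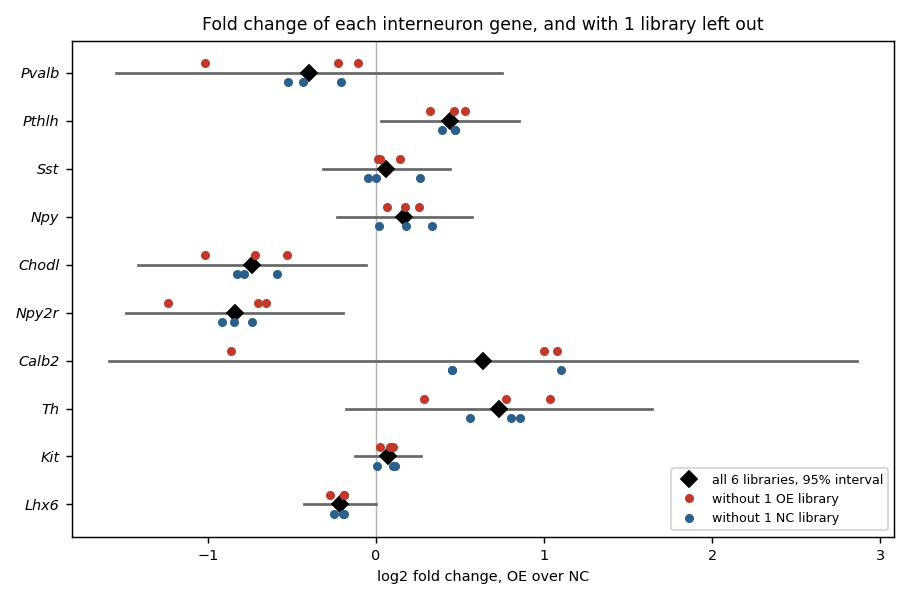
Log2 fold change (OE over NC) of each interneuron gene with its 95% interval, with points for the fits that leave out 1 OE or 1 NC library. The intervals of Pthlh, Chodl, Npy2r and Lhx6 do not cross 0, and the point of Calb2 without OE replicate 2 lies on the other side of 0.

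Sst and Npy were also set beside the cortical list, after their values had been seen. Ordered from low to high, Npy ran NC replicate 2, OE replicate 1, NC replicate 1, OE replicate 2, NC replicate 3 and OE replicate 3, which is the order of the summed cortical list in all 6 libraries. Sst was likewise lowest in NC replicate 2 and highest in the 2 libraries with the highest cortical sums. Cort and Crhbp, which cortical somatostatin cells also express, were lowest in the same library and highest in the same pair. Cort had 1.57, 1.96 and 3.63 CPM in OE and 2.79, 0.585 and 3.59 CPM in NC, and Crhbp had 3.24, 7.88 and 11.0 CPM in OE and 6.11, 1.61 and 10.7 CPM in NC. Nos1, the nitric oxide synthase of the striatal somatostatin cells, did not, at 61.6, 51.0 and 40.5 CPM in OE and 54.3, 64.8 and 53.1 CPM in NC. The cortex has Sst and Npy interneurons of its own, and their part in these levels was not tested. Pvalb showed no such order, with its lowest library, OE replicate 2, in the middle of the cortical range.

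**Figure D4:**
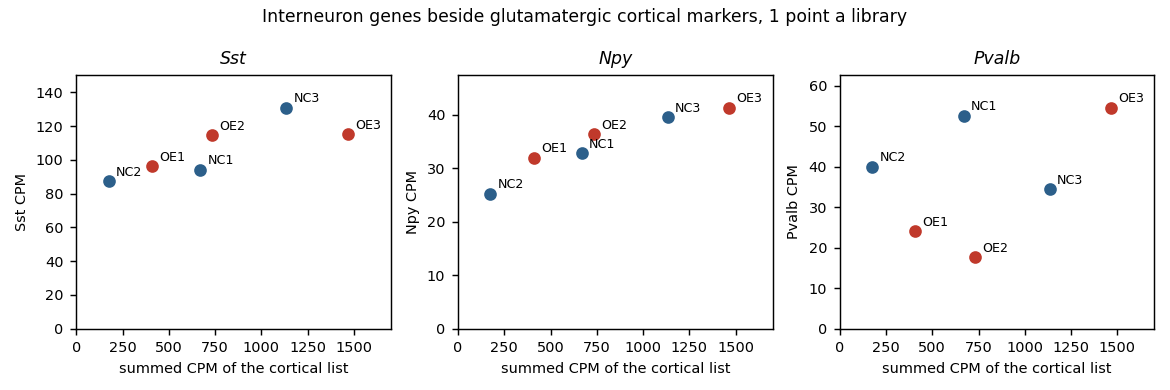
CPM of Sst, Npy and Pvalb in each library against the summed CPM of 11 glutamatergic cortical markers, with OE and NC libraries in red and blue. Npy follows the order of the cortical sum in all 6 libraries, whereas Pvalb has 17.6 CPM at a sum of 733 and 54.6 CPM at 1466.

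Levels were also expressed relative to the sum of Gad1 and Gad2, the GABA-synthesising enzymes shared by all these cells and by medium spiny neurons. The ratio of the summed Sst, Npy and Chodl CPM to that sum was 13.7%, 19.4% and 23.3% in OE and 14.1%, 10.8% and 23.7% in NC. The ratio of the summed Pvalb and Pthlh CPM to it was 2.88%, 2.78% and 8.59% in OE and 6.08%, 4.0% and 5.13% in NC. Both ratios overlapped between the groups. All 10 genes together summed to 222 to 277 CPM in OE and 231 to 279 CPM in NC.

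Related gene lists were examined for the same comparison, and 0 of their members passed over all genes in either direction in edgeR's quasi-likelihood test. Among 15 tested genes of interneuron development, 6 were negative and 9 positive, with a median log2 fold change of 0.02. Sox6, a transcription factor acting after Lhx6 in the same lineage, had 21.7, 21.3 and 21.6 CPM in OE and 27.3, 26.9 and 25.3 CPM in NC. Its groups were apart, with little spread in either, and its log2 fold change was −0.30 (standard error 0.07) at an adjusted p of 0.852 in edgeR's quasi-likelihood test. Elfn1, a synaptic adhesion protein of somatostatin cells, also had separate groups, at 9.07, 12.3 and 13.6 CPM in OE and 14.2, 14.2 and 16.5 CPM in NC.

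The 4 shared GABA genes were all slightly negative, with a median of −0.13. Gad2 averaged 309 ± 80.0 CPM in OE and 370.3 ± 78.9 CPM in NC, and Gad1 averaged 495 ± 56.5 CPM in OE and 530.1 ± 90.3 CPM in NC (SD, n = 3 each), so both differed by less than their spread. Of 8 genes of fast-spiking physiology, 7 were negative, with a median of −0.11 and no separate groups. Ppargc1a, a regulator of mitochondrial genes, had 37.8, 40.9 and 41.8 CPM in OE and 51.3, 44.3 and 41.1 CPM in NC. Btbd11, a synaptic protein of inhibitory interneurons, stood at 8.74, 8.51 and 19.8 CPM in OE and 14.7, 11.8 and 17.4 CPM in NC, with the same low pair of OE libraries as Pvalb. Syt2, a calcium sensor of fast synaptic terminals, averaged 71.5 ± 10.7 CPM in OE and 77.5 ± 16.1 CPM in NC (SD, n = 3 each).

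Receptors and ligands of the interneuron peptides had 6 of 9 tested genes positive and a median of 0.06. Lowest among them was Sstr5, a somatostatin receptor, at 0.532, 0.481 and 0.480 CPM in OE and 1.19, 1.37 and 1.04 CPM in NC. Its groups were well apart at this low level, with a log2 fold change of −1.19 (standard error 0.25) and an adjusted p of 0.780 in edgeR's quasi-likelihood test. The other neuropeptide Y receptors did not share the low values of Npy2r. Npy1r averaged 15.1 ± 3.14 CPM in OE and 12.5 ± 3.33 CPM in NC, and Npy5r averaged 4.64 ± 0.0712 CPM in OE and 4.23 ± 0.450 CPM in NC (SD, n = 3 each). Npy4r had no count in any library.

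Of 10 markers of other interneuron classes, 5 were positive and 5 negative, with a median of −0.02. Lamp5, a membrane protein of neurogliaform and of some cortical neurons, had 83.0, 89.4 and 110 CPM in OE and 73.3, 77.2 and 77.3 CPM in NC, without overlap. The cannabinoid receptor Cnr1 averaged 385 ± 96.1 CPM in OE and 321 ± 45.6 CPM in NC, and Tac2, a tachykinin gene, averaged 1.74 ± 0.498 CPM in OE and 2.21 ± 0.764 CPM in NC (SD, n = 3 each). By replicate, Cnr1 had 485, 378 and 293 CPM in OE and 326, 364.5 and 274 CPM in NC. Within each group this is the order of the summed medium spiny neuron list, and the part of those neurons in its level was not tested. All 6 cholinergic interneuron markers were negative, with a median of −0.51 and no separate groups. The choline transporter Slc5a7 had 35.0, 26.6 and 12.6 CPM in OE and 41.4, 53.4 and 28.7 CPM in NC. Chat and Slc18a3, which make and load acetylcholine, averaged 10.6 ± 4.31 and 4.82 ± 1.90 CPM in OE and 15.6 ± 5.10 and 7.06 ± 2.44 CPM in NC (SD, n = 3 each). Of the 5 dopamine synthesis and transport genes tested, 3 were negative, with a median of −0.08. Gch1, which makes the cofactor of tyrosine hydroxylase, averaged 0.964 ± 0.312 CPM in OE and 0.754 ± 0.0843 CPM in NC, and the vesicular transporter Slc18a2 averaged 4.72 ± 1.2 CPM in OE and 5.77 ± 2.0 CPM in NC (SD, n = 3 each). The 4 hypothalamic and septal markers tested had 3 negative values and a median of −0.28, and their list summed to 19.0 to 26.6 CPM in OE and 23.5 to 31.4 CPM in NC.

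**Figure D5:**
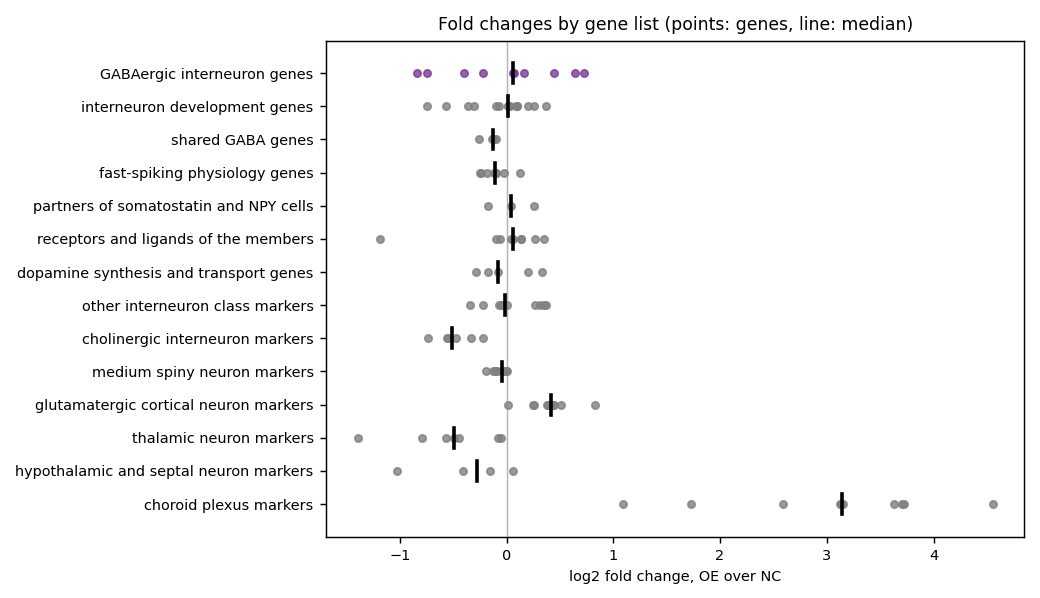
Log2 fold change (OE over NC) of each tested gene by list, with a line at the median of the list. The 10 interneuron genes spread from −0.84 to 0.73 around a median of 0.07, while the choroid plexus list, raised in OE replicates 1 and 2, lies to the right of 0 with a median of 3.14.

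The genes nearest to 4 of the markers over the 6 libraries were sought among 16042 genes with a mean of at least 1 CPM. The measure was the root-mean-square distance between mean-centred log2 CPM values, which also grows with a gene's own spread. Nearest to Pvalb were Ramp3 (0.17), Vamp1 (0.19), a synaptic vesicle fusion protein, and the gene model Gm13629 (0.21). Vamp1 had 71.5, 59.9 and 136 CPM in OE and 122, 95.1 and 92.6 CPM in NC, which repeats the low OE replicates 1 and 2 and the high OE replicate 3 of Pvalb. Nearest to Sst were the gene models 2310030G06Rik (0.03) and A230077H06Rik (0.04) and the calcium channel subunit Cacnb3 (0.04). Nearest to Th was Ace, the angiotensin-converting enzyme, at a distance of 0.07, followed by Loxl1 (0.19) and Pon3 (0.20). Ace had 34.1, 56.9 and 18.0 CPM in OE and 21.1, 23.3 and 15.8 CPM in NC. Calb2, which had the widest span of the 10 genes, had Ndst4 at 0.33, Cdhr1 at 0.50 and Frem1 at 0.52. Ndst4 had 3.57, 16.1 and 4.89 CPM in OE and 6.73, 4.73 and 11.6 CPM in NC. Like Calb2, it was highest in OE replicate 2 and lowest in OE replicate 1.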

How the data were processed

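Whole-number counts per Ensembl gene were deposited by the authors for 6 striatum samples, without normalization. Per the labels' protocols, RNA was extracted with Trizol and made into strand-specific TruSeq libraries. The submitters' processing notes name FastQC 0.11.5, STAR 2.5.3a, Cuffnorm, DESeq 1.16.1 and mm10, without roles. The counting program and its strand setting are not stated in the sources used here. Symbols (55154 of 55335 identifiers), positions and exon lengths came from GENCODE M21.

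Samples were grouped by title. OE was tested against NC with edgeR 4.0.16 in R 4.3.3 (TMM factors, filterByExpr, robust quasi-likelihood F-test, prior count 2, Benjamini-Hochberg adjustment over 19809 genes, two-sided). In a simulated data set with 200 changed genes, 13 of 183 calls were false, a larger share than the 0.05 threshold. An earlier simulated set also exceeded it, but so few sets do not measure the average rate that the threshold bounds. Standard errors are the absolute log2 fold change over the square root of F, and 95% intervals use the t distribution with the fit's degrees of freedom. CPM uses TMM-adjusted library sizes. Alternatives included DESeq2 1.42.0, limma-voom (limma 3.58.1), other filters and factors, covariates, and libraries left out. Members and lists were chosen with earlier results of these data known. Named beyond the members are up to 3 genes per list with the smallest p, the nearest genes by pattern, and a few chosen after their values were seen (Tcf7l2, Nr4a2, Aldh1a1, Slc6a3, Pitx3, En1, Npy4r and the mast cell markers). The list gene Abtb3 is annotated as Btbd11, and Dlx6os1 had more than 1 identifier and was left out. Replicates of a group differed beyond sampling noise (chi-square over its degrees of freedom 19.1 to 49.6). The labels do not say that samples are separate animals, so p-values cover only the spread among these libraries, which may be technical. Some genes of the related lists are not reported here by name.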

Additional observations from a re-analysis of the deposited data

How the results depend on the processing

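The fit was repeated in 18 other settings. In those with more than 1 library in each group, 0 of the 10 interneuron genes passed the adjusted p of 0.05. The median of their log2 fold changes ran from −0.08 without OE replicates 1 and 2 to 0.13 without NC replicate 3. It was also negative with the choroid plexus covariate (−0.01), without NC replicate 2 (−0.016) and without OE replicate 2 (−0.042). Each median lay within 0.165 of the value over all samples. That yardstick is the SD within groups of the 10 genes' mean log2 level, not a spread of the median itself. The count over all genes was 83 (76 higher, 7 lower) with the DESeq2 Wald test, 6 with limma-voom, 3 with no filter, 6 with the cortical level as a covariate, 5 without OE replicates 1 and 2, and 1 to 2 with 1 library left out. The deviations of same-numbered libraries correlated at −0.02, 0.03 and 0.29, and 2 of 3 OE libraries correlated best with their own number. With 3 libraries in each group this cannot settle whether replicate numbers pair the samples, which were treated as unpaired. With the replicate block, 3 genes passed over all and 0 among the 10. Directions turned in 10 cases among the 10 genes. Sst was at −0.0193 with the cortical covariate and −0.0004 without NC replicate 1, and lay between −0.0489 and 0.262 with any 1 library dropped. With the choroid plexus covariate Pvalb was at 0.0559, Calb2 at −0.757 and Th at −0.0337. Without OE replicates 1 and 2, Pvalb was at 0.36, Calb2 at −0.62 and Th at −0.19, and Calb2 ran from −0.861 without OE replicate 2 to 1.10 without NC replicate 3. The cause of these turns was not tested. Chodl has no value where 1 CPM was required in all 6 libraries. With 1 OE library left, it was assumed to vary like the NC libraries.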
